A study of Homo sapiens with 2 samples.

Results

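Receptor tyrosine kinases are membrane proteins with an extracellular ligand-binding part and a cytoplasmic kinase domain. Ligand binding brings receptor molecules together, their kinase domains phosphorylate each other on tyrosines, and adaptor proteins bound there start the RAS/ERK, PI3K and PLC-gamma pathways. Several of them, among them EGFR, AXL, MET and EPHA2, are well known in breast cancer lines that lack the hormone receptors. Their transcripts were examined here as a list of 47 genes, taken by symbol and grouped by receptor family. Of these, 38 were among the 19029 genes of the deposited table. ERBB4, FLT1, FLT3, TIE1, LTK, ROS1, EPHA1, EPHA7 and EPHB1 were not analysed here.

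The material was BT549, a human breast cancer cell line with mesenchymal features, from which RNA was sequenced. The 2 groups were cells that overexpress SNHG15, the non-coding host gene of a small nucleolar RNA, and cells with a control vector named pcIP2 in the growth protocol. Both were grown in DMEM with foetal bovine serum and antibiotics. Each group held 1 library, and the labels give no clone, passage or vector promoter. With 1 library per group there is no replicate check and no test across libraries. The 95% intervals below cover counting error only, and reads are not independent molecules.

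The SNHG15 library held 16570496 counts and the vector library 20799017. SNHG15 itself was at 1997 CPM (counts per 1000000, scaled by TMM) against 23.3 CPM, from 34450 and 466 counts, which is 85.6-fold higher (78.1 to 94.0) in the library labelled SNHG15 overexpression. Of 5 mesenchymal markers, 4 differed by the 1.5-fold rule given below, in both directions. Over all genes compared that rule called 13.3% higher and 12.2% lower. N-cadherin, CDH2, was 5.28-fold higher (4.12 to 6.82) and SPARC 1.78-fold higher (1.74 to 1.82), while fibronectin, FN1 (ratio 0.555, 0.542 to 0.568), and ZEB1 (0.590, 0.418 to 0.823) were lower. Vimentin, VIM, was at 1998 and 1993 CPM. Of the epithelial markers, keratin KRT18 was lower (0.585, 0.573 to 0.598), KRT8 was not counted as different and E-cadherin, CDH1, had 12 and 11 counts. The part of these marker differences in the receptor results was not tested. The epithelial markers EPCAM, ESR1 and PGR were not analysed here. The question put to the data is how receptor transcripts differ between the SNHG15-overexpressing and the vector cells.

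By level per length the receptors were dominated by EPHA2, an ephrin-A receptor. EPHA2 had 186.6 FPKM (fragments per kilobase, scaled to the library total by the authors) in the SNHG15 library and 163.7 FPKM in the vector library, 60.5% and 59.4% of the summed FPKM of all 38 receptor genes. AXL (34.9 and 29.6 FPKM), EPHB4 (26.6 and 25.9 FPKM) and PTK7 (20.5 and 19.5 FPKM) followed, and with EPHA2 made up 87.1% and 86.7% of the sum. ERBB2 came next with 9.56 and 10.1 FPKM. In both libraries most receptor genes were low, with 25 of 38 under 1 FPKM in the SNHG15 library and 24 in the other.

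The order of levels depends on the gene length used. The length implied by the deposited FPKM was 37453 bases for FGFR1, against 6216 bases for its GENCODE transcript with the longest coding sequence, and 18057 against 5282 bases for PTK7. All GENCODE exons together cover 13842 bases in FGFR1 and 9024 in PTK7. Of 10972 genes with 50 or more counts in the SNHG15 library, 11% had an implied length within 5% of that exonic length. The length behind the deposited FPKM is thus not known. Per kilobase of that transcript, PTK7 came second in both libraries (67.3 and 69.5 CPM per kilobase), ahead of AXL and EPHB4, and FGFR1 stood at 30.8 and 16.7 CPM per kilobase. EPHA2 came first and ERBB2 after the other 3 by either length. Ratios between the libraries do not depend on the length.

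**Figure D1:**
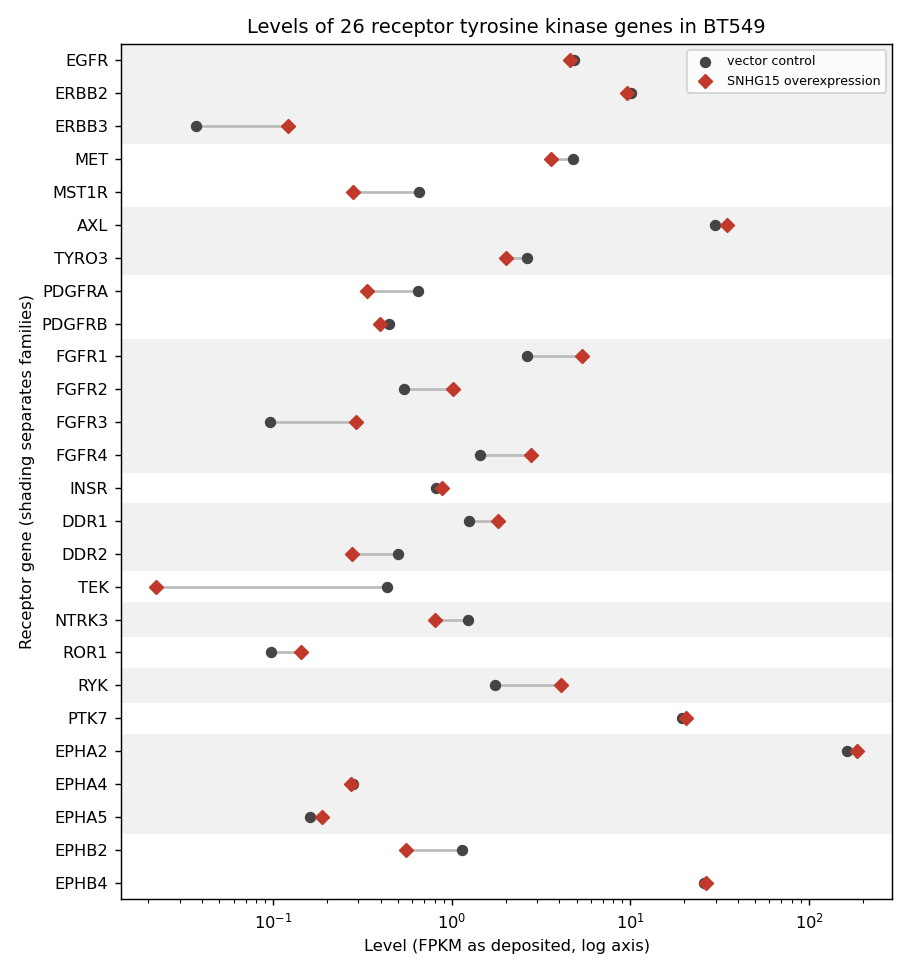
Deposited FPKM (log axis) of the 26 receptor genes that averaged 1 CPM or more, grouped by family, with a circle for the vector library and a diamond for the SNHG15 library (1 library each). EPHA2 is far above the others in both libraries, the 4 FGFR genes all have the diamond to the right, and TEK has the widest gap.

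An average of 1 CPM over both libraries was reached by 26 of the 38 receptor genes. Higher and lower below mean that the ratio of scaled counts (SNHG15 to vector) reached 1.5-fold and its 95% interval excluded 1. Of the 26, 6 were higher (FGFR1, FGFR2, FGFR3, FGFR4, RYK and ERBB3), 6 were lower (TEK, MST1R, EPHB2, PDGFRA, DDR2 and NTRK3) and 14 were neither. Over all 12934 genes compared the same rule called 13.3% higher and 12.2% lower, beside 23.1% each for the receptor genes. ERBB3, FGFR3 and TEK passed the 1 CPM minimum only through the library in which they were higher, so their difference is partly built into that selection.

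The median log2 ratio was -0.06 for the receptor genes and 0.02 for all genes compared, and the median size of the log2 ratio, sign ignored, was 0.52 and 0.34. The counts of all 38 receptor genes together gave a ratio of 1.03 (1.02 to 1.05) and the 4 most abundant per length had ratios between 0.945 and 1.09. Only TEK had its whole interval beyond 2-fold, on the lower side, where the share over all genes compared was 2.45%. On the higher side that share was 2.20% and no receptor gene reached it.

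**Figure D2:**
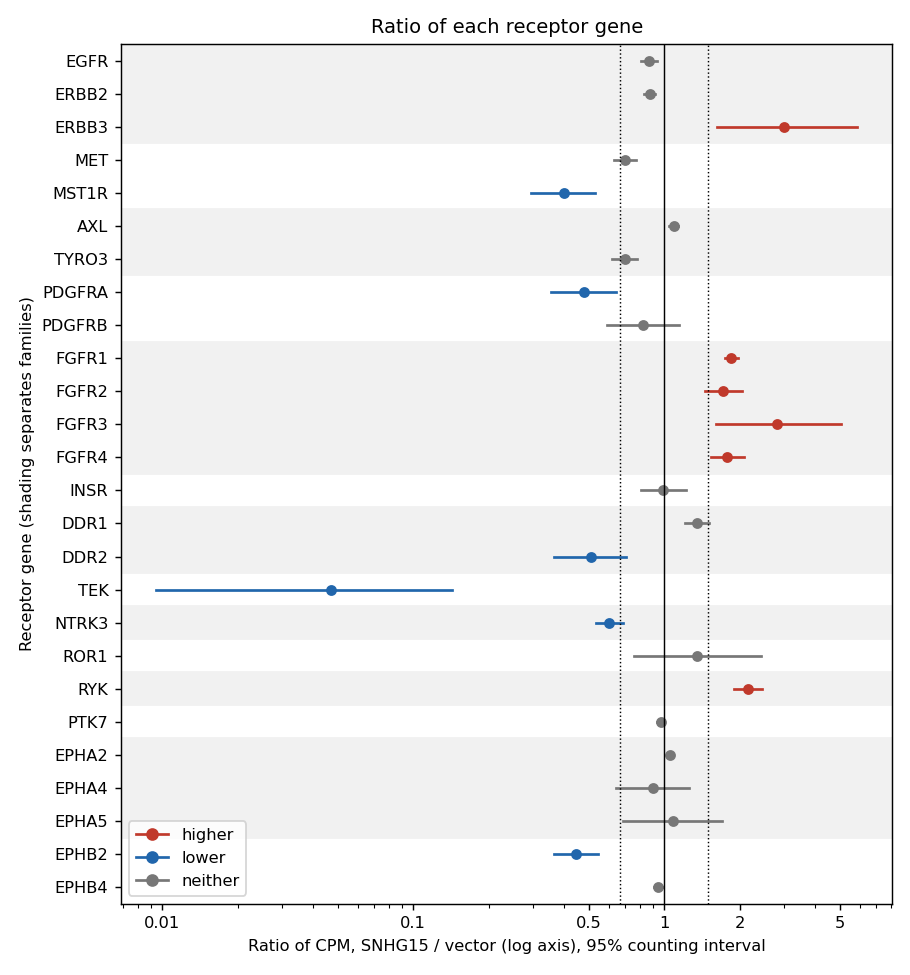
Ratio of CPM, SNHG15 to vector (log axis), with its 95% counting interval for the 26 receptor genes compared, with 1.5-fold as dotted lines and 1 as the solid line. The 4 FGFR genes, RYK and ERBB3 lie to the right of the upper dotted line, and TEK, MST1R, EPHB2, PDGFRA, DDR2 and NTRK3 to the left of the lower one.

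The fibroblast growth factor receptors bind FGFs together with heparan sulfate and signal through the adaptor FRS2. All 4 were higher in the SNHG15 library. FGFR1 (ENSG00000077782, chromosome 8 at 38411138 to 38468834, minus strand, hg38), the most abundant of them, had 3308 counts against 2068, or 191.7 against 103.5 CPM, and was 1.85-fold higher (1.75 to 1.96). FGFR4 (ENSG00000160867, chromosome 5 at 177086886 to 177098144, plus strand) had 448 against 292 counts and was 1.78-fold higher (1.53 to 2.07). These 2 genes stood at 5.33 and 2.77 FPKM in the SNHG15 library and 2.65 and 1.44 FPKM in the vector library.

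FGFR2 (ENSG00000066468, chromosome 10 at 121478334 to 121598458, minus strand) was at 19.9 CPM against 11.6 CPM in the vector library, a ratio of 1.72 (1.45 to 2.04). FGFR3 (ENSG00000068078, chromosome 4 at 1793307 to 1808872, plus strand) was scarce, with 46 counts against 19, and had the widest interval of the family (2.80-fold, 1.61 to 5.07). The family lies on 4 chromosomes. Summed over the family, 4145 counts against 2610 gave a ratio of 1.84 (1.75 to 1.93), most of it from FGFR1. Exons of FGFR1 overlap those of LETM2 and AC087623.1 on the opposite strand, and the sources used here do not say whether the libraries kept strand.

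The promoters of 3 of the 4 FGFR genes are shown because these genes were higher together, with that of TEK, the receptor gene with the lowest ratio, for comparison. Each is the stretch of 200 bases before the RefSeq start (GRCh38.p14) nearest to the start of the deposited locus, 5′ to 3′ on the gene's strand. Capitals mark GC boxes, the motif GGGCGG on either strand, to which SP1-type factors bind. The windows are chr10:121598445-121598644 (minus strand) for FGFR2, chr4:1793093-1793292 (plus) for FGFR3, chr5:177086715-177086914 (plus) for FGFR4 and chr9:27109025-27109224 (plus) for TEK.
FGFR2: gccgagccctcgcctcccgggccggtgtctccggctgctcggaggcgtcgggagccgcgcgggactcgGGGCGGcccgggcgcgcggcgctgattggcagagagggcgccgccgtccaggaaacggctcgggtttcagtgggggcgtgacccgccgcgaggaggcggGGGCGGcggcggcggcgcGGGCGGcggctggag
FGFR3: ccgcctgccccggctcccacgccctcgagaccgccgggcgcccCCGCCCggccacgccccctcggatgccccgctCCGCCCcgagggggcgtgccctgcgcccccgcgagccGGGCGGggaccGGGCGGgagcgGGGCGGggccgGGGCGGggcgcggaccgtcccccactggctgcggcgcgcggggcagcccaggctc
FGFR4: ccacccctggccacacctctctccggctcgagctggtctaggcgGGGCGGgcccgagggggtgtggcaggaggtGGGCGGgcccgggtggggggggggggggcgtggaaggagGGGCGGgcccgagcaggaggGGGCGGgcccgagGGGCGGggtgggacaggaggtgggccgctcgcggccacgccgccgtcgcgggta
TEK: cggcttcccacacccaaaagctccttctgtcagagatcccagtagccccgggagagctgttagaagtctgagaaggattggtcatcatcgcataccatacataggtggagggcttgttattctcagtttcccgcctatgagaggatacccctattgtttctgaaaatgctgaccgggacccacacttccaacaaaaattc
The GC box occurred 3 times in the FGFR2 window, 6 times in that of FGFR3, 5 times in that of FGFR4 and 0 times in that of TEK. GC content was 81.5%, 87.5%, 81.0% and 49.5%, beside a median of 59% over all RefSeq windows. The window of EPHB2, which was lower, had 84.5%, so GC content did not separate higher from lower genes.

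GC boxes were common among the receptor promoters in general. Of the 35 receptor genes with a RefSeq promoter, 28 (80%) held at least 1, against 40.1% of all 35114 RefSeq windows of the same length. Of the 6 genes that were lower, 3 held it (4 times in the MST1R window, 2 in that of NTRK3 and 1 in that of EPHB2), and the windows of TEK, PDGFRA and DDR2 held 0. The window of RYK, which was higher, held it 2 times. The TATA motif TATAAA was found in 1 of the 35 windows, that of DDR2, and in 8.59% of all windows, both strands searched. The AP-1 motif TGANTCA, in which N is any base, was found in the windows of PDGFRA and CSF1R and in 5.38% of all windows. The E-box CACGTG was found in none of the 35 windows and in 5.49% of all. None of the 4 motifs contains another, and a match is a description of the letters only. FGFR1, ERBB3 and FLT4 had no RefSeq promoter in the sources used here, so the higher genes FGFR1 and ERBB3 are not covered. The RefSeq start lay 7695 bases from the locus start for EPHB6, 4549 for DDR1 and 1537 for TYRO3.

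Among the ERBB receptors, EGFR and the orphan ERBB2 carried nearly all of the counts and differed little. EGFR, the receptor of EGF and TGF-alpha, had 1321 counts against 1755, a ratio of 0.871 (0.811 to 0.936). ERBB2, which pairs with the other family members and binds no ligand of its own, had 2780 against 3672 counts, a ratio of 0.876 (0.834 to 0.921). ERBB3, the neuregulin receptor with a weak kinase, was higher at 39 counts against 15 (3.01-fold, 1.62 to 5.88), from 0.121 FPKM against 0.0370. Its level was thus far below those of EGFR (4.57 and 4.84 FPKM) and ERBB2 in both libraries. Exons of ERBB3 overlap those of AC034102.2 on the same strand, so reads may be divided between them.

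Both members of the MET family were on the lower side. MST1R, also named RON and the receptor of macrophage-stimulating protein, had 64 counts against 186 and was 2.51-fold lower (1.88 to 3.39). It lies on chromosome 3 at 49887002 to 49903873 on the minus strand (ENSG00000164078) and overlaps exons of AC105935.1 and AC105935.2 on the opposite strand. MET, the receptor of hepatocyte growth factor, was at 35.8 against 51.3 CPM. Its ratio of 0.698 (0.630 to 0.772) excluded 1 but did not reach 1.5-fold, so MET was counted as neither.

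The TAM receptors, which bind GAS6 and protein S on apoptotic cells, were led by AXL. AXL had 4107 counts against 4376 and a ratio of 1.09 (1.04 to 1.13). TYRO3 was at 28.2 against 40.4 CPM, a ratio of 0.698 (0.622 to 0.782), short of 1.5-fold. MERTK had 19 and 10 counts and was below the minimum for comparison. Summed, the family gave a ratio of 1.03 (0.988 to 1.07).

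The platelet-derived growth factor receptors, which mark fibroblasts and pericytes in tissue, were low in BT549. PDGFRA (ENSG00000134853, chromosome 4 at 54229097 to 54298247, plus strand) had 65 counts against 157 and was 2.09-fold lower (1.55 to 2.83). It shares exons with AC058822.1 on the same strand. PDGFRB had 66 against 93 counts, and its interval included 1 (0.590 to 1.14). The insulin receptor, INSR, was at 10.5 and 10.6 CPM, a ratio of 0.993 (0.810 to 1.22).

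TEK, also named TIE2, is the angiopoietin receptor of endothelial cells. It had 3 counts against 74, or 0.174 against 3.70 CPM, a ratio of 0.0469 (0.00946 to 0.143), or 21.3-fold lower. TEK (ENSG00000120156) lies on chromosome 9 at 27109141 to 27230175 on the plus strand, and no exon of another GENCODE gene overlaps its exons. Its level in the vector library was 0.434 FPKM. Of 5 endothelial markers only EGFL7 was in the table, at 42.1 against 80.5 CPM, while PECAM1, CDH5, VWF and CLDN5 were not analysed here. The part of such cells in the TEK result was not tested. In bulk RNA, fewer cells that express a gene and less RNA per cell cannot be told apart.

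The collagen receptors DDR1 and DDR2 differed in opposite directions. DDR2, the receptor of fibrillar collagen that is typical of mesenchymal cells, had 55 counts against 125 and was 1.96-fold lower (1.42 to 2.75). DDR1, typical of epithelial cells, was the more abundant, at 712 counts against 609, with a ratio of 1.35 (1.21 to 1.51) that did not reach 1.5-fold. Per length DDR1 stood at 1.82 and 1.24 FPKM, and DDR2 at 0.275 and 0.498 FPKM. DDR2 lies on chromosome 1 at 162631373 to 162787400 on the plus strand (ENSG00000162733).

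NTRK3, the neurotrophin-3 receptor TRKC, was lower at 421 counts against 805 (1.65-fold, 1.47 to 1.86). It lies on chromosome 15 at 87859751 to 88256768 on the minus strand (ENSG00000140538). RYK, a WNT receptor whose kinase domain is inactive, had 678 counts against 365 and was 2.15-fold higher (1.89 to 2.45), at 4.07 FPKM in the SNHG15 library and 1.75 FPKM in the vector library. RYK (ENSG00000163785) lies on chromosome 3 at 134065303 to 134250744 on the minus strand. PTK7, another WNT co-receptor with an inactive kinase domain, was at 355.4 and 367.2 CPM, a ratio of 0.968 (0.936 to 1). ROR1, a receptor of WNT5A, had 28 and 24 counts, and its interval included 1 (0.755 to 2.43). Of the 3 compared genes of this WNT-binding group, RYK alone was counted as higher.

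Ephrin receptors form the largest branch of the kinases and bind membrane-anchored ephrins on neighbouring cells. EPHA2 had 14354 counts against 15807, and its ratio of 1.05 (1.03 to 1.08) was the most precise of the list. EPHB4 had 4169 against 5105 counts, a ratio of 0.945 (0.907 to 0.985). EPHB2 was the ephrin receptor that was called, at 133 counts against 345 and 2.24-fold lower (1.83 to 2.76). It lies on chromosome 1 at 22710839 to 22921500 on the plus strand (ENSG00000133216) and overlaps MIR4253 on the opposite strand. EPHA4 and EPHA5 had intervals that included 1 (0.645 to 1.26 and 0.682 to 1.70).

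The 12 receptor genes below a mean of 1 CPM had at most 19 counts in either library. ROR2, a WNT5A receptor, had 16 counts against 1, a ratio of 18.5 (2.88 to 776.8). The stem cell factor receptor KIT had 9 against 1 (10.4, 1.44 to 456.7) and EPHB3 had 9 against 2 (5.21, 1.08 to 49.5). These 3 intervals excluded 1 but rest on very few counts in the vector library. For MERTK, NTRK2, FLT4, CSF1R, EPHA3 and EPHB6 the intervals included 1. RET had 2 counts against 0, ALK 0 against 2 and KDR 1 in each library. For these genes no ratio is given since both libraries were under 3 counts, which equal 0.174 CPM (SNHG15) and 0.150 CPM (vector).

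**Figure D3:**
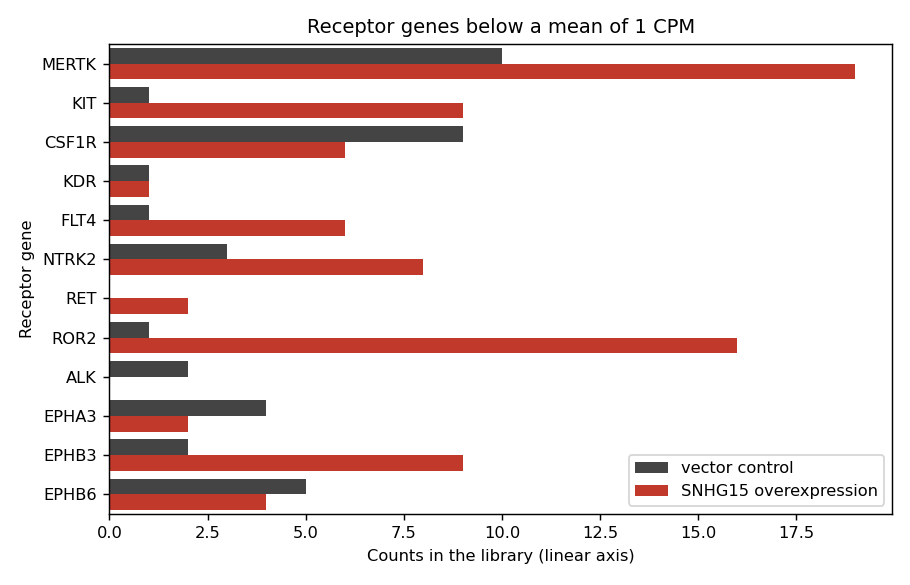
Counts (linear axis from 0) of the 12 receptor genes below a mean of 1 CPM, in the vector library (dark bars) and the SNHG15 library (red bars). ROR2 has 16 counts against 1 and KIT 9 against 1, while KDR has 1 in each.

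In the authors' deposited values, 8 of the 38 receptor genes had a log2 ratio past 1 in size with an adjusted p-value under 0.05. These cut-offs were applied here to the receptor genes only. The share of all genes past them was not computed, so this count has none beside it. By them ERBB3, FGFR1, FGFR3, ROR2 and RYK were higher and MST1R, TEK and EPHB2 lower. The rule is unlike the one above, since it asks for 2-fold in FPKM, scaled to library totals, and not 1.5-fold in TMM-scaled counts. FGFR1 passed it at 1.01. Of the 8, 7 were among the 12 counted here from the same counts, and ROR2 was below the minimum for comparison. The variation between cultures cannot be estimated from 1 library per group, so those p-values are not a replicate check.

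Ratios also varied along chromosomes, so each receptor gene was set beside the median log2 ratio of the 40 nearest genes compared on its chromosome. RYK, at a log2 ratio of 1.10, lay among genes with a median of 0.55, and relative to them its ratio was 1.47 (1.30 to 1.68), short of 1.5-fold. The 4 FGFR genes lay among genes with medians of 0.05 (FGFR1), 0.08 (FGFR2), -0.32 (FGFR3) and 0.22 (FGFR4), and relative to those their ratios were 1.79, 1.63, 3.49 and 1.52. TEK, DDR2 and NTRK3 were lower although their neighbours had positive medians of 0.34, 0.34 and 0.26. TYRO3 was lower by the same rule once set against its neighbours, with a ratio of 0.617 (0.550 to 0.692). On chromosome 7 the medians around EGFR, MET and EPHB4 were -0.16, -0.29 and -0.54, and relative to them the ratios were 0.975, 0.851 and 1.38.

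**Figure D4:**
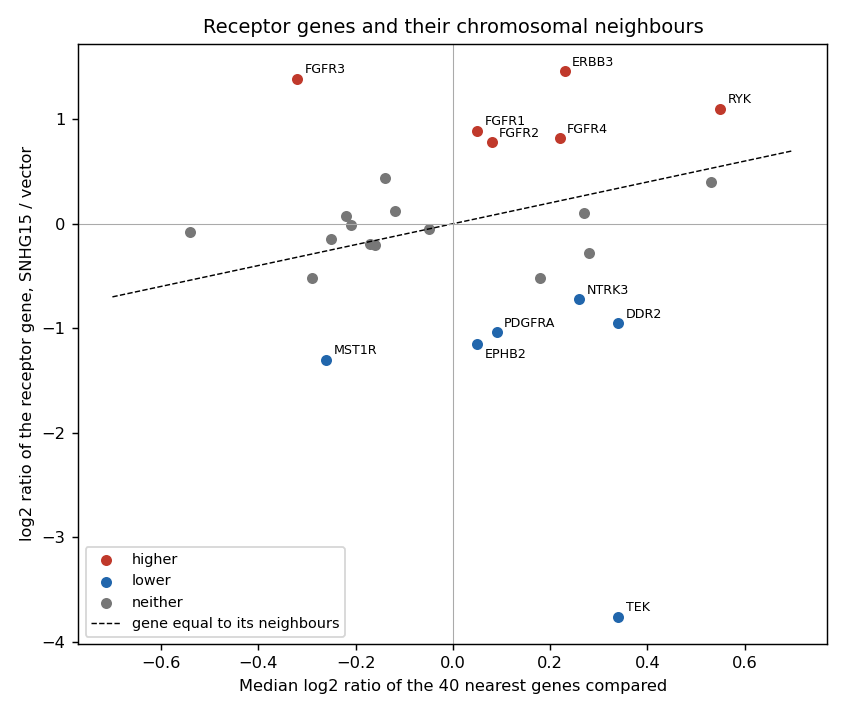
Log2 ratio of each of the 26 receptor genes compared against the median log2 ratio of the 40 nearest genes compared on the same chromosome, with a dashed line for a gene equal to its neighbours. The FGFR genes lie above it, RYK is the higher gene with the highest neighbour median (0.55), and TEK is far below.

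Ratios followed transcript GC content across all genes (Spearman's rho -0.33 over 12895 genes, which share the 2 libraries and are not independent). With that trend removed, the ratios of FGFR1, FGFR2, FGFR3 and FGFR4 were 1.99, 1.70, 3.43 and 2.17. MET (0.616, 0.557 to 0.682) then counted as lower and DDR1 (1.60, 1.44 to 1.79) as higher. No receptor gene counted as higher or lower lost its call there.

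Ligands of these receptors were compared next, from a list of 65, of which 46 were in the table and 35 compared. Of the 35, 4 were higher, 9 were lower and 22 were neither, and the median log2 ratio was -0.17. These are 11.4% higher and 25.7% lower, beside 13.3% and 12.2% of all genes compared. Pathway calls were also made under 5 alternatives, which were library totals, DESeq2 size factors, thinning of the vector library, GC trend removal and centring on neighbouring genes. With the GC trend removed 3 were higher (8.57%) and 7 lower (20%), beside 11.7% and 10.7% of all genes compared. Relative to neighbouring genes 1 was higher (2.86%) and 10 were lower (28.6%), beside 10.8% and 10.4%. Of the FGFs, FGF2 (basic FGF) was at 34.9 against 68.8 CPM and 1.97-fold lower (1.79 to 2.17), while FGF5 was 1.70-fold higher (1.5 to 1.93), with 629 counts against 428. The FGF5 call was lost with the GC trend removed (1.43) and relative to neighbouring genes (1.19). FGF1, FGF11 and FGF12 were neither, with ratios of 0.851, 1.01 and 0.846.

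Ligands of EGFR differed among themselves. AREG, amphiregulin, had 2 counts against 63, a ratio of 0.0368 (0.00436 to 0.138), and passed the 1 CPM minimum only through the vector library, so its difference is partly built into that selection. EREG, epiregulin, had 0 against 19 and was below the minimum for comparison. HBEGF (60 counts against 63) and the ERBB3 ligand NRG1 (647 against 754) had intervals that included 1. Protein S, PROS1, a TAM ligand, was 2.73-fold higher (1.83 to 4.16), and GAS6 was at 89.0 and 80.0 CPM. For MST1R, its ligand MST1 had 16 and 31 counts and an interval that included 1.

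Of the 4 VEGF-family ligands compared, 3 were lower, beside 12.2% of all genes compared. VEGFC was 1.81-fold (1.41 to 2.33), VEGFB 1.70-fold (1.60 to 1.81) and PGF, placental growth factor, 1.54-fold lower (1.49 to 1.59), while VEGFA had a ratio of 0.769 (0.712 to 0.832). Of these 3, VEGFC alone kept its call under all 5 of these alternatives. VEGFB lost it with the GC trend removed (0.698) and relative to neighbouring genes (0.849), and PGF by library totals (0.706) and after GC trend removal (0.792). Of the VEGF receptors, KDR had 1 count in each library and FLT4 had 6 against 1. FLT1, which binds VEGFA, VEGFB and PGF, was not analysed here. CSF1, the abundant macrophage growth factor, was at 468.5 against 804.4 CPM (1.72-fold lower, 1.67 to 1.76), and its receptor CSF1R had 6 and 9 counts. IGF2 was 2.17-fold lower (1.70 to 2.78), and the RET ligands GDNF and ARTN were 2.41-fold (1.28 to 4.8) and 1.73-fold lower (1.45 to 2.07). GDNF, at 0.811 against 1.95 CPM, also passed the minimum only through the vector library, and the ARTN call was lost with the GC trend removed (0.762). PDGFC, a ligand of PDGFRA, was 1.72-fold higher (1.28 to 2.32), a call lost relative to neighbouring genes (1.44). Of the angiopoietins that bind TEK, ANGPT1 had 3 counts against 0, and ANGPT2 was not analysed here.

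Ephrins, the ligands of the EPH receptors, were neither in 6 of the 7 compared. EFNA5 was 1.56-fold higher (1.33 to 1.82), a call that was lost with the GC trend removed (1.42) and relative to neighbouring genes (1.16). EFNA4 was close to that threshold, with a ratio of 1.47 (1.26 to 1.70), and passed it by library totals (1.59) and with the GC trend removed (1.64). EFNB3, the ephrin with the most counts, had a ratio of 0.888 (0.823 to 0.958). WNT5A, bound by ROR receptors and RYK, was at 24.5 and 27.2 CPM, and its interval included 1 (0.792 to 1.03).

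Of the 7 co-receptors compared, 2 were higher (28.6%) and 0 lower, beside 13.3% and 12.2% of all genes compared. The 2 higher genes encode carriers of heparan sulfate, the cofactor of FGF binding: glypican GPC1 was 1.65-fold higher (1.53 to 1.77) and syndecan SDC2 1.55-fold (1.02 to 2.39). GPC1 kept its call under the 5 alternatives, and SDC2 lost it with DESeq2 size factors (1.51, interval from 0.989), with the vector library thinned (1.49) and with the GC trend removed (1.39). Another syndecan, SDC4, had a ratio of 1.48 (1.41 to 1.54), just short of the threshold. SDC4 passed it by library totals (1.60) and relative to neighbouring genes (1.74). SDC1, also a syndecan, had a ratio of 0.727 (0.682 to 0.774) and was neither, but counted as lower relative to neighbouring genes. In that setting 3 of the 7 co-receptors were higher and 1 was lower, beside 10.8% and 10.4% of all genes compared. The VEGF co-receptors NRP1 and NRP2 had ratios of 0.865 and 0.822 and were neither. The median log2 ratio of the co-receptors was 0.30.

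Of 23 adaptors and first effectors compared, 3 were higher (13.0%, beside 13.3% of all genes compared) and 1 was lower (4.35%, beside 12.2%), with a median log2 ratio of 0.10. PIK3R3, a regulatory subunit of PI3K, was 3.84-fold higher (3.38 to 4.37), at 60.9 against 15.9 CPM. The RAS exchange factor SOS2 (1.75-fold, 1.26 to 2.43) and the adaptor NCK1 (1.67-fold, 1.26 to 2.22) were also higher. Of these, PIK3R3 alone kept its call under the 5 alternatives, since relative to neighbouring genes SOS2 was at 1.32 and NCK1 at 1.12, and NCK1 was at 1.44 with the GC trend removed. FRS3, a docking protein of FGF receptors, was 1.71-fold lower (1.19 to 2.48), a call lost with the GC trend removed (0.673), and its relative FRS2 had 27 and 23 counts. The adaptors GRB2 (ratio 1.01, 0.963 to 1.07) and SHC1 (1.03, 1.01 to 1.05) hardly differed.

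Of 24 negative regulators compared, 3 were higher (12.5%, beside 13.3% of all genes compared) and 2 lower (8.33%, beside 12.2%). Their median log2 ratio was 0.04. PTPN1, the phosphatase PTP1B that dephosphorylates the insulin and EGF receptors, was 2.84-fold lower (2.70 to 2.97), at 129.9 against 368.3 CPM, with its whole interval beyond 2-fold. SPRY1, a sprouty inhibitor of RAS/ERK signalling, was 2.15-fold lower (1.57 to 2.98), whereas SPRY2 and SPRY4 had ratios of 1.25 and 0.960. SOCS3 was 1.84-fold higher (1.65 to 2.05), and LRIG2 and LRIG3 were 1.54-fold (1.14 to 2.09) and 1.66-fold higher (1.17 to 2.36). With the GC trend removed LRIG2 was at 1.34 and LRIG3 at 1.47, so both calls were lost, as was that of LRIG2 relative to neighbouring genes (1.34) and with DESeq2 size factors, where it was just short of the threshold. ERRFI1, a feedback inhibitor of EGFR, had a ratio of 1.04 (0.973 to 1.10). Among 5 sheddases, which release EGFR ligands and receptor ectodomains, ADAM19 was 1.54-fold lower (1.47 to 1.62) and the other 4 were neither. Thus 20% of the sheddases were lower, beside 12.2% of all genes compared. The ADAM19 call was lost by library totals (0.703) and with the GC trend removed (0.703).

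**Figure D5:**
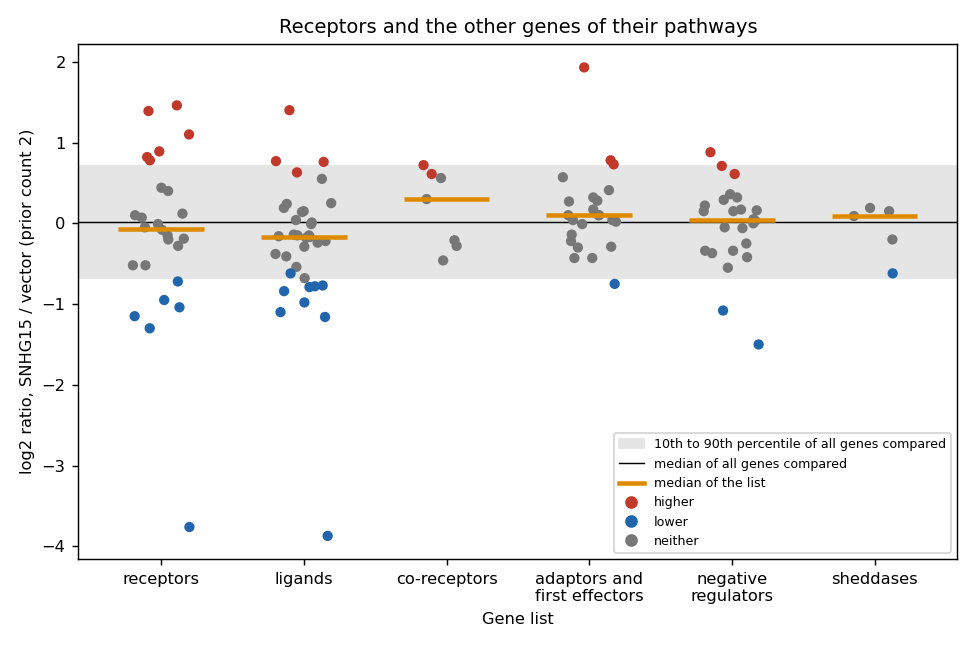
Log2 ratios, SNHG15 to vector, of the receptor genes and of 5 lists of pathway genes that averaged 1 CPM or more, 1 point per gene with sideways jitter, a bar for each list's median and a band from the 10th to the 90th percentile of all genes compared. Receptors (median -0.06) and ligands (median -0.17) each hold points far below the band, TEK and AREG, which passed the 1 CPM minimum only through the vector library.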

How the data were processed

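RNA of BT549 cells overexpressing SNHG15 and with a control vector was measured with 1 library each, grouped by the genotype in the labels. Libraries were made from total RNA with the VAHTS Universal V6 kit, per the labels' protocols. Per the submitters' processing notes the build was hg38; the aligner, counter, annotation and strandedness are not given in the sources used here. Per gene, the authors deposited whole-number counts and FPKM values, per the file headers. The authors' deposited log2 ratio is that of SNHG15 to vector, and the deposited adjusted p-values were made with edgeR, per the table's name.

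TMM factors (1.04 for SNHG15, 0.960 for vector) came from edgeR 4.0.16 (R 4.3.3), and CPM from the scaled totals. Each ratio has a 95% interval by the Clopper-Pearson method, exact and conditional on the sum of both counts. The code was run on simulated counts that held counting error only, which cannot show how the intervals fare with variation between cultures. Genes that averaged 1 CPM or more entered the comparison, with medians of 284 and 315 counts. Log2 ratios used a prior count of 2. The called genes of the pathway lists were named, up to 4 per list and side, with receptors, SNHG15 and ligands of the receptor beyond 2-fold. Other pathway genes (FGF1, FGF11, FGF12, EREG, HBEGF, NRG1, GAS6, MST1, VEGFA, EFNA4, EFNB3, WNT5A, SDC1, SDC4, NRP1, NRP2, FRS2, GRB2, SHC1, SPRY2, SPRY4 and ERRFI1) were named after their values were seen. Members and lists were chosen with earlier results of these data known. GC content (lowess, span 0.5, statsmodels 0.14.6), exons and biotypes came from GENCODE 29. Promoters came from RefSeq. Alternatives were scaling by library totals or by size factors of DESeq2 1.42.0, filters, thinning, FPKM with a pseudocount of 1, prior counts of 0.5 and 10, GC trend removal, centring on neighbouring genes, protein-coding genes and ratios without intervals.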

Additional observations from a re-analysis of the deposited data

How the results depend on the processing

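Of the 12 receptor genes called, 11 kept their call under library totals, DESeq2 size factors, thinning of the deeper library, removal of the GC trend and centring on 40 neighbouring genes. The exception was RYK, at 1.47 relative to its neighbours. Of the 25 pathway genes called, 12 kept their call under the same 5 alternatives and 13 lost it under at least 1, a count made after seeing the data. Library totals raise all log2 ratios by 0.12 and gave the same 6 higher and 6 lower, beside 18.4% and 8.90% of all genes compared. FPKM with a pseudocount of 1, which shrinks low genes, left 3 higher, 0 lower and 0 beyond 2-fold, and SNHG15 at 68.8-fold. By that measure 5.91% of all genes compared were higher and 4.58% lower. Centring on neighbouring genes put SNHG15 at 115.7-fold. The count beyond 2-fold was 2 by library totals, with no filter on low counts and with centring on neighbouring genes. It was 0 with a minimum of 5 CPM and 7 by the ratio without its interval. The share of all genes beyond 2-fold was not computed in these settings. The median log2 ratio of the receptor genes was 0.05 by library totals and 0.04 with the GC trend removed. Among the 14 compared receptor genes without exon overlap, an alternative chosen after seeing the data, 4 were higher and 3 lower. Of all genes compared in that setting, 13.3% were higher and 12.2% lower. Of 359 values of single genes under alternatives, 266 stayed within the counting interval, 93 moved outside it and 0 changed the side of a called gene. For the low receptors depth is the limit, since 3 counts equal 0.174 and 0.150 CPM. No replicate could be left out, and no paired analysis was possible because each group held 1 library.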
